A study of Bos taurus with 14 samples.

Results

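AHSG and CST3 encode secreted proteins of the cystatin superfamily, and their RNA was followed in the livers of 14 female calves. AHSG (ENSBTAG00000000522) encodes fetuin-A and CST3 (ENSBTAG00000000598) encodes cystatin C. The members are these 2 genes of the 27607 Ensembl genes in the deposited count table, and both were kept among the 13307 genes tested. They were selected on their difference between the maternal diets, since both are on the list of differentially expressed genes that the study drew from these calves. Values that compare the diets are therefore given as a description, without a test.

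All calves were born to crossbred Angus-based heifers bred by artificial insemination with semen of 1 bull, were fed colostrum replacer and then milk replacer, and were sampled 30 h after birth. Dams of the CON group ate a basal diet. Dams of the VTM group ate the same diet with 113 g per heifer per day of a vitamin and mineral premix, from 60 days before breeding through gestation, and heifers that conceived on rebreeding were included. Liver RNA was sequenced from 7 calves per group, and the study analysed 6 per group after leaving out CON calf 19 and VTM calf 10 for low mapping rates.

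Cystatins fold into a shared domain that, in the classical members, blocks cysteine proteases such as the cathepsins. Cystatin C is the main secreted inhibitor of this kind, is made by nearly every cell type and is used in the clinic as a serum marker of kidney filtration. Fetuin-A carries a pair of cystatin-like domains but acts mainly as a mineral-binding protein of plasma. It is made by hepatocytes, is especially abundant in fetal blood, keeps calcium phosphate from precipitating and can inhibit the insulin receptor. In the RefSeq annotation of ARS-UCD2.0, AHSG lies beside FETUB, HRG and KNG1, which encode fetuin-B, histidine-rich glycoprotein and kininogen of the same superfamily. CST3 has CST7, the gene of cystatin F, as its second neighbour on one side.

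Depth was 13382264 to 20125409 counts per library, and the calves left out by the study had the lowest totals. In VTM calf 40, only 318 genes had 1 to 9 counts, and CON calf 19 had 1265, against 1531 to 3349 in the other 12 libraries. Genes encoded by the mitochondrial genome took 1.93 to 3.898% of counts in the 6 VTM calves and 2.11 to 18.3% in the 6 CON calves. CON calf 31, at 18.3%, and CON calf 25, at 8.70%, were the highest. A gene's share of a library is a proportion, so that fewer cells of a type and less RNA per cell cannot be told apart.

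AHSG was among the most abundant RNAs of the calf liver. Over the 12 calves it held 14th place by mean share, with 0.890% of all counts. In the VTM group it took 0.731% of counts in calf 4, 0.692% in calf 16, 1.55% in calf 22, 1.16% in calf 28, 1.24% in calf 34 and 1.198% in calf 40. The CON group was at 0.553% in calf 1, 0.997% in calf 7, 1.23% in calf 13, 0.366% in calf 25, 0.316% in calf 31 and 0.645% in calf 37. VTM calf 22 was above all others, CON calves 25 and 31 were lowest, and the groups overlapped, since CON calves 7 and 13 were above VTM calves 4 and 16. Counting error was small beside these gaps, with a 95% Wilson interval of 0.314 to 0.319% in CON calf 31, and such intervals cover counting error only.

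By rank among all genes, AHSG lay between 7th and 16th in the VTM calves and between 9th and 34th in the CON calves. CON calf 13 had it at 9th place, while in CON calves 25 and 31 it lay at 30th and 34th. Without the mitochondrial genes these last places were 24th and 25th, so part of the lower rank in both calves came from mitochondrial genes that moved above it.

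CST3 was a gene of moderate level, with 0.00740% of counts on average and 1654th place by mean share. Its counts in the VTM group were 802 in calf 4, 928 in calf 16, 1100 in calf 22, 1205 in calf 28, 924 in calf 34 and 430 in calf 40. In the CON group they were 868 in calf 1, 1996 in calf 7, 1259 in calf 13, 1763 in calf 25, 2760 in calf 31 and 1326 in calf 37. CON calves 7, 25 and 31 were clearly highest and VTM calf 40 lowest. As shares, the VTM calves ran from 0.00266 to 0.00599% and the CON calves from 0.00567 to 0.0156%. Only CON calf 1 fell inside the VTM range, below VTM calf 28, so that the VTM calf had the higher share in 1 of 36 pairs of calves from opposite groups.

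The 95% Wilson interval of the CST3 share was 0.0150 to 0.0162% in CON calf 31 and 0.00242 to 0.00292% in VTM calf 40, wider in proportion than for AHSG because fewer reads were counted. CST3 ranked between 627th and 2238th in the CON calves and between 2045th and 4218th in the VTM calves. Its lowest place among the study's calves, in VTM calf 40, was in the library with the fewest genes of 1 to 9 counts. The part of that library's makeup in its value was not tested.

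**Figure D1:**
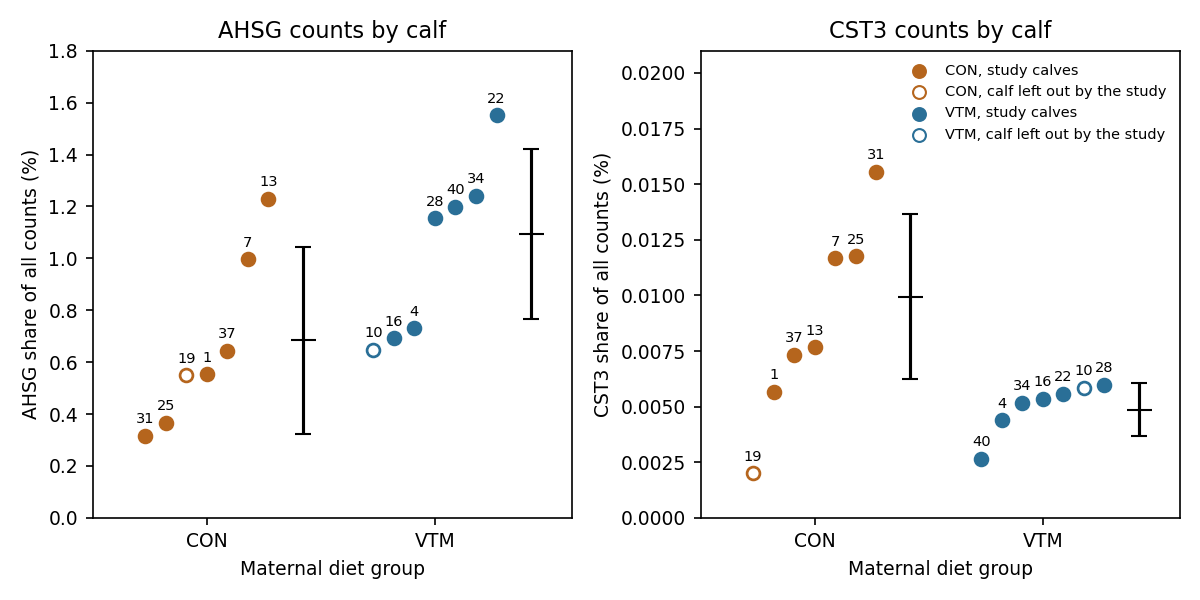
Share of all counts, in percent, that mapped to AHSG (left) and CST3 (right) in each of 14 calves, by maternal diet group, with calf numbers above the points and calves of a group ordered by value. Filled points are the 12 calves the study analysed, open points the 2 it left out, and the bars give mean and SD of the 6 filled points. AHSG overlapped between the groups, whereas CST3 in the filled CON points was above every filled VTM point except for CON calf 1.

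TMM factors, which adjust library size for composition, were used to express levels as CPM, counts scaled to a fixed library size. On this scale the mean of AHSG over the VTM calves was 10694 ± 3336 CPM, against 6707 ± 2949 CPM over the CON calves (SD, n = 6 per group). AHSG was thus 1.595-fold higher in VTM, which is 0.67 on the log2 scale with a standard error of 0.28. The difference in means was a little larger than the SD within either group, and the VTM calf was higher in 30 of 36 pairs.

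For CST3 the CON calves averaged 109.1 ± 63.0 CPM and the VTM calves 47.5 ± 12.2 CPM (SD, n = 6 per group). It was 2.30-fold higher in CON, which is -1.199 as log2 of VTM over CON with a standard error of 0.32. The CON calves were more spread than the VTM calves, from 54.1 CPM in calf 1 to 222 CPM in calf 31, and 5 of the 6 were above all VTM calves, which lay between 25.8 and 57.4 CPM. On this scale the VTM calf was higher in 3 of 36 pairs.

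By the study's threshold, an unadjusted p of at most 0.05 with a change of 0.5 or more on the log2 scale in either direction, edgeR called 0.864% of the tested genes higher in VTM and 2.85% lower in VTM. AHSG belongs to the first and CST3 to the second by the way they were chosen, and nothing is read from that. Over the tested genes, 430 had a log2 fold change at or above that of AHSG and 154 one at or below that of CST3. No gene of the table had a Benjamini-Hochberg adjusted p of at most 0.05 with edgeR or DESeq2, and 690 had an unadjusted p of at most 0.05 with edgeR and 880 with DESeq2.

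Both genes varied more between calves of the same diet than most genes next to them in order of abundance. The SD of log2 CPM within groups was 0.52 for AHSG, against a median of 0.35 over 114 genes next to it in that order. Of these, 35 had a larger SD, and most of the 114 were less abundant than AHSG, since few genes lie above it. For CST3 the SD was 0.62, against a median of 0.30 over the 200 genes next to it in that order, of which 25 had a larger SD.

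The relation of the hepatocyte product to the general inhibitor was followed as the ratio of AHSG to CST3 counts within a library, which needs no scaling between libraries. It is not corrected for transcript length, so it compares calves and not the amounts of the 2 RNAs. In VTM the ratio was 166 in calf 4, 129 in calf 16, 278 in calf 22, 193 in calf 28, 240 in calf 34 and 451 in calf 40. In CON it was 97.6 in calf 1, 85.4 in calf 7, 160 in calf 13, 31.1 in calf 25, 20.3 in calf 31 and 87.9 in calf 37. The VTM calf was higher in 35 of 36 pairs, and the exception was CON calf 13 above VTM calf 16.

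This ratio averaged 243 ± 115 over the VTM calves, against 80.4 ± 50.6 over the CON calves (SD, n = 6 per group). On the log2 scale the difference was 1.79 (standard error 0.53), or 3.45-fold. Its extremes came from different genes. VTM calf 40 had the highest ratio through the lowest CST3 of the study's calves, while CON calves 25 and 31 had low AHSG together with high CST3.

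**Figure D2:**
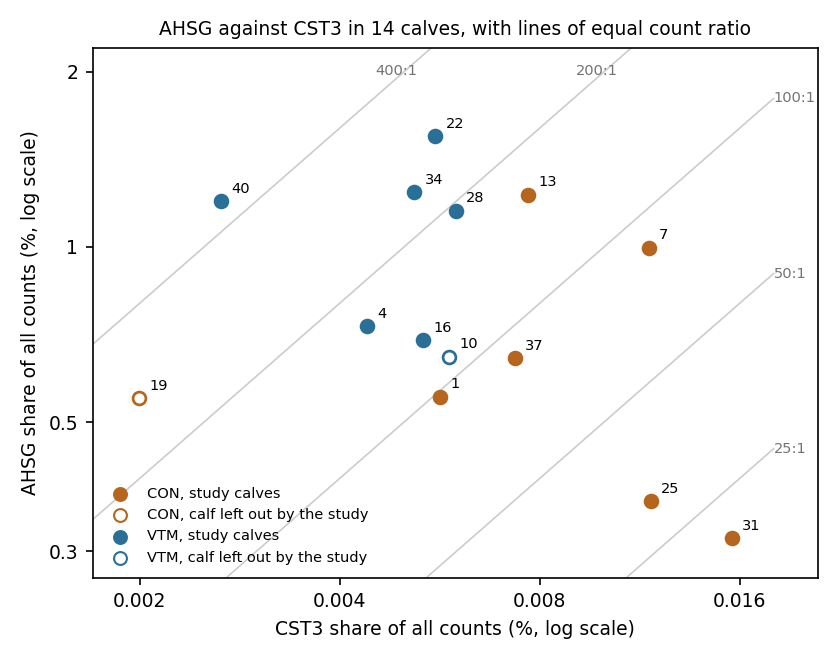
AHSG share against CST3 share of all counts, both in percent on log scales, for 14 calves, with grey lines of equal count ratio. Filled points are the 12 calves the study analysed and open points the 2 it left out. CON calves 25 and 31 lie near 25:1, VTM calf 40, at 451, is the highest, and CON calf 19, at 275, lies among the VTM ratios.

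The calves left out by the study took no part in the choice of the members. With all 14 libraries scaled together, AHSG was at 6461 CPM in VTM calf 10 and 4880 CPM in CON calf 19, 1.32-fold higher in VTM. CST3 was at 58.3 CPM in VTM calf 10 and 17.7 CPM in CON calf 19, 3.29-fold higher in VTM and so opposite to the other calves. CON calf 19 had 274 CST3 counts, the fewest of the 14 libraries, and CST3 was at 5697th place there. Its AHSG to CST3 ratio was 275, above 5 of the 7 VTM calves, and that of VTM calf 10 was 111. With 1 calf per group no test is possible, and both libraries are those of low mapping rate.

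**Figure D3:**
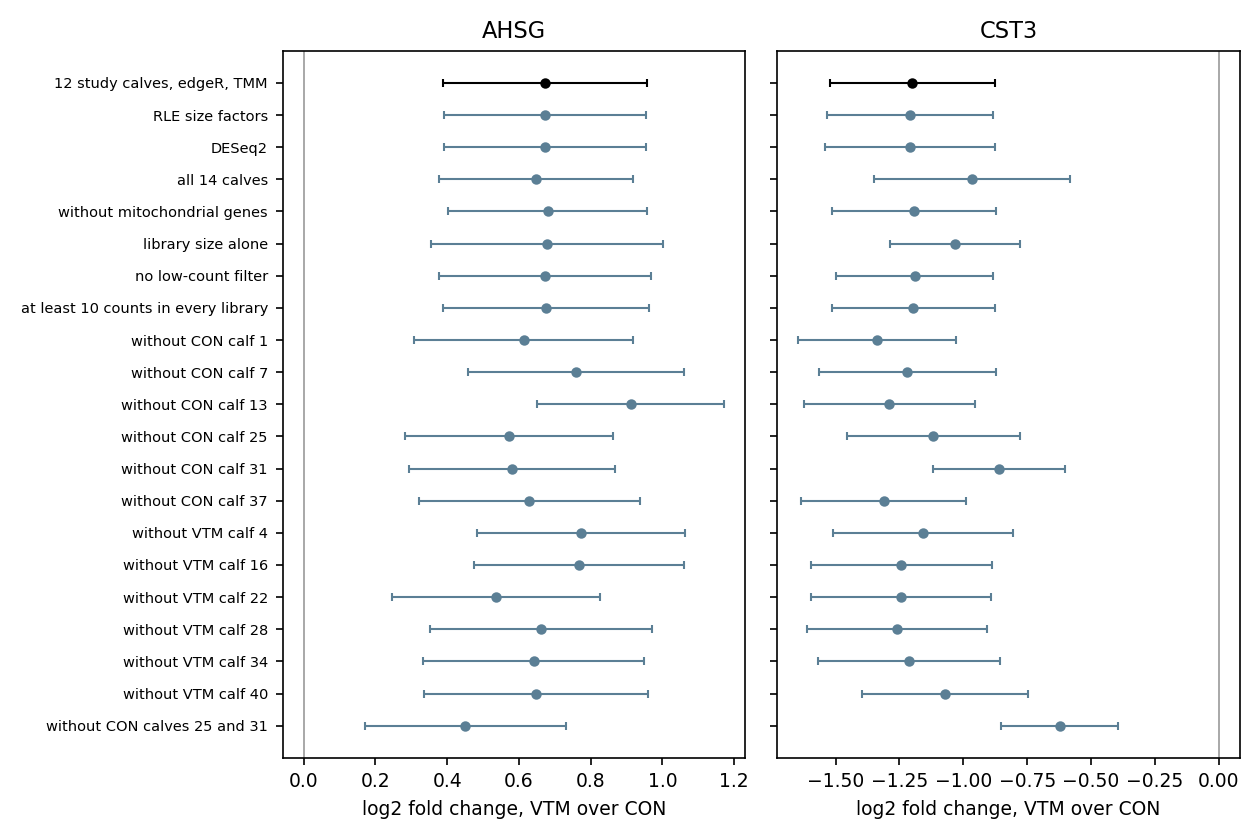
Log2 fold change of AHSG (left) and CST3 (right), VTM over CON, with standard errors as bars, in the fit of the 12 study calves with edgeR and TMM factors (black) and in 20 other fits (blue) that change the tool, scaling, filter or calves. In these fits AHSG stayed between 0.45 and 0.91 and CST3 between -1.34 and -0.62, and for both the value nearest 0 was the fit without CON calves 25 and 31.

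Leaving out CON calf 31 alone moved the log2 fold change of CST3 to -0.86, and leaving out CON calves 25 and 31 together moved it to -0.62. That of AHSG was 0.45 without both calves and 0.91 without CON calf 13, whose AHSG was the highest of its group. The difference in log2 ratio was 1.10 without CON calves 25 and 31.

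Since both calves had the largest mitochondrial shares, AHSG and CST3 were set against that share over the 12 calves. So that the counts of the mitochondrial share did not enter both sides, each gene was taken as the log2 of its share of the other counts. These other counts, called non-mitochondrial here, leave out only the 17 mitochondrial genes that could be identified. AHSG fell with the mitochondrial share, with Pearson's r = -0.70 (permutation p = 0.00223, adjusted over the 4 relations computed 0.00446) and Spearman's rho = -0.43 (permutation p = 0.165). CST3 rose with it, with r = 0.73 (permutation p = 0.00428, adjusted 0.00571) and rho = 0.52 (permutation p = 0.0906). For the log2 ratio of AHSG to CST3, r was -0.80 (permutation p = 0.00157, adjusted 0.00446) and rho -0.53 (permutation p = 0.0802).

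Over these 12 calves none of the 3 passed 0.05 by rank, and all 3 rested on CON calves 25 and 31, the farthest from the median mitochondrial share. Without them r was -0.33 for AHSG (permutation p = 0.357), 0.13 for CST3 (permutation p = 0.703) and -0.30 for the ratio (permutation p = 0.3995). The genes and the mitochondrial list were all chosen on the diet difference, so the pooled values are not independent of the diets. With each group's mean subtracted and permutation within groups, r was -0.63 for AHSG (permutation p = 0.0494, adjusted 0.0659), 0.69 for CST3 (permutation p = 0.0175, adjusted 0.0351) and -0.82 for the ratio (permutation p = 0.00549, adjusted 0.0220). Subtracting means leaves CON calves 25 and 31 in place, and both also enlarged the diet differences by which the genes were chosen. These p values are therefore not independent of that choice, and the mean-subtracted r was not computed with both calves left out.

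Within the CON group r was -0.74 for AHSG (exact permutation p = 0.0514), 0.82 for CST3 (exact permutation p = 0.0319) and -0.91 for the ratio (exact permutation p = 0.0153). By rank none of them passed 0.05 there, with rho of -0.83, 0.66 and -0.71 (exact permutation p = 0.0583, 0.175 and 0.136). CON calves 25 and 31, at 8.70 and 18.3% mitochondrial counts, stand apart from the study's other CON calves, at 2.11 to 3.61%. The values within CON were not computed without them, so these p values are not independent of the choice of the genes either. With CON calf 19 added, r over the 7 CON calves was -0.72 for AHSG (exact permutation p = 0.0448), 0.53 for CST3 (exact permutation p = 0.220) and -0.78 for the ratio (exact permutation p = 0.0252), so that CST3 no longer passed. By rank over these 7 calves AHSG passed 0.05, with rho of -0.86 (exact permutation p = 0.0238). CST3 and the ratio did not, with rho of 0.43 and -0.46 (exact permutation p = 0.354 and 0.302). CON calves 25 and 31 were in these values as well. Within the VTM group, where the mitochondrial share spans only 1.93 to 3.898%, r was -0.24, 0.43 and -0.47 (exact permutation p = 0.676, 0.349 and 0.353). Whether the relations differ between the groups was not tested. CON calf 19, with 4.84% mitochondrial counts, had low AHSG as well but also the lowest CST3. Over all 14 calves AHSG passed 0.05 by rank as well, with r = -0.67 (permutation p = 0.00028) and rho = -0.59 (permutation p = 0.0294). For CST3 r was 0.59 (permutation p = 0.0266) and rho 0.27 (permutation p = 0.341), and for the ratio r was -0.76 (permutation p = 0.00288) and rho -0.41 (permutation p = 0.1497).

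**Figure D4:**
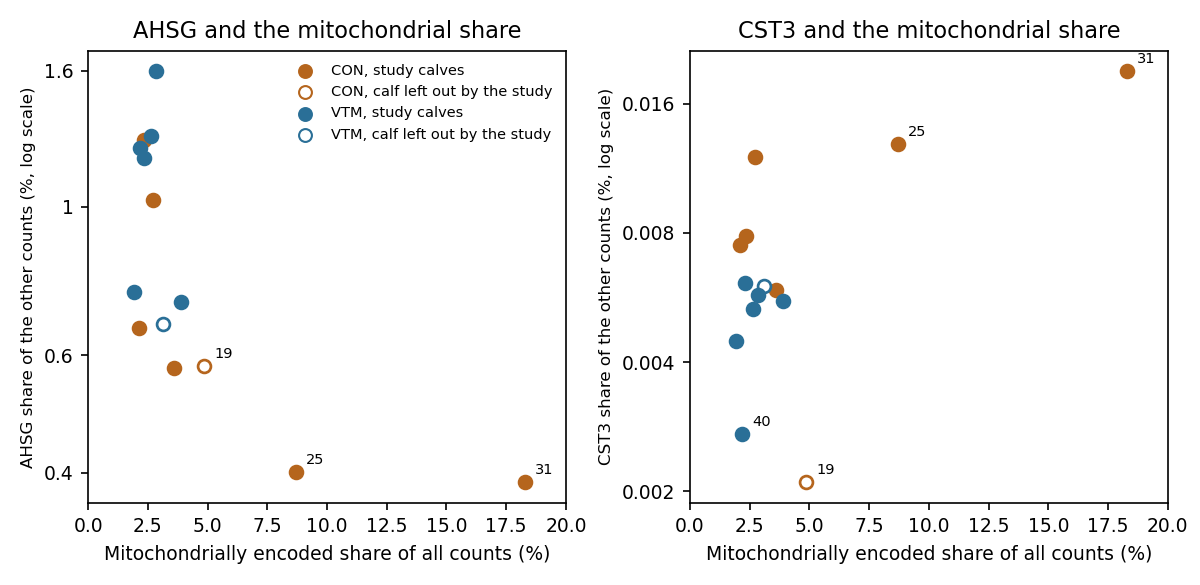
AHSG (left) and CST3 (right) as a percent of the non-mitochondrial counts, on log scales, against the percent of all counts on mitochondrially encoded genes, in 14 calves. Filled points are the 12 calves the study analysed and open points the 2 it left out. CON calves 25 and 31 stand apart at 8.70 and 18.3%, with the lowest AHSG and the highest CST3 shares, and the other 12 calves are all at or under 4.84%.

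AHSG and CST3 themselves were inversely related over the 12 calves, with r = -0.58 (permutation p = 0.0453, adjusted 0.0453) and rho = -0.51 (permutation p = 0.0932). The diet difference by which they were chosen runs in opposite directions and sets part of this value. With the group means subtracted r was -0.31 (permutation p = 0.394), and without CON calves 25 and 31 it was -0.09 (permutation p = 0.820). Within CON it was -0.45 and within VTM 0.01 (exact permutation p = 0.356 and 0.990), so that beyond the diets and both calves no relation between the genes was detectable in this number of calves.

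Of 16 genes of the cystatin superfamily on a fixed list, 3 could be paired with a name, AHSG, CST3 and CST6, because names came from the study's tables alone. CST6 (ENSBTAG00000046587) encodes cystatin E/M, a secreted inhibitor of legumain and cathepsins. Its mean was 35.5 ± 6.98 CPM over the VTM calves and 59.5 ± 33.3 CPM over the CON calves (SD, n = 6 per group). The log2 fold change was -0.74 with a standard error of 0.30, and CST6 too is on the study's list. As in CST3, CON calf 31 was highest, at 114 CPM, followed by CON calf 25, at 84.4 CPM, and the groups overlapped, since CON calf 1, at 28.2 CPM, was the lowest of the 12. CON calf 19 was low in CST6 as it was in CST3, at 18.9 CPM with all 14 libraries scaled together.

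Among named genes, the pattern of CST3 over the 12 calves was most like that of FHL2, a LIM-domain cofactor of transcription, by Pearson's r of log2 CPM (0.99). It was the closest of all 13306 other tested genes. FHL2 was highest in CON calf 31, at 19.7 CPM, and lowest in VTM calf 40, at 2.82 CPM, as CST3 was. ADAMTS6, a secreted metalloprotease, PLD2, a phospholipase D, GMDS, an enzyme of GDP-fucose synthesis, and EMP3, a membrane protein, followed with r of 0.98, 0.97, 0.97 and 0.97. After the group means were subtracted these 5 were between 0.94 and 0.98. That leaves in place CON calves 25 and 31, the highest in FHL2 with 12.6 and 19.7 CPM, and VTM calf 40, the lowest. Correlations without these calves were not computed.

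AHSG had less close matches. PRRG1, a membrane protein with a Gla domain, was the closest named gene (r = 0.86), with 3 unnamed genes above it. It was highest in VTM calf 22, at 85.1 CPM, as AHSG was, and lowest in CON calf 25, at 20.5 CPM. NMRK1, a nicotinamide riboside kinase, SYNM, an intermediate filament protein, RALGPS1, an exchange factor for Ral GTPases, and GRPEL2, a mitochondrial cochaperone, were at 0.74, 0.74, 0.72 and 0.72. For the 5 genes r was between 0.57 and 0.78 after the group means were subtracted. All 10 genes are on the study's list of differences between the diets, which favours them in this ranking.

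Marker genes of other liver cells could be named in part, and all of those below except SOX9 have a name because the study listed them as different between the diets. Of 7 stellate cell and fibroblast markers, COL1A1, COL3A1, DCN and LRAT had a name, and their summed level was 1129 to 2115 CPM in VTM and 1169 to 3891 CPM in CON. LRAT, which stores vitamin A in stellate cells, was the one of these 4 with a higher mean in VTM, by 0.83 on the log2 scale with a standard error of 0.20. CON calves 7 and 37, with 3891 and 3693 CPM, were highest in this sum, whereas CON calves 25 and 31, highest in CST3 after scaling, were at 1856 and 1770.5 CPM. For cholangiocytes, KRT7, KRT19 and SOX9 of 5 markers summed to 26.9 to 67.5 CPM in VTM and 43.8 to 98.6 CPM in CON. SOX9, the least abundant of them, had the higher mean in VTM, by 0.54 on the log2 scale with a standard error of 0.69. ROBO4, the 1 named of 6 endothelial markers, was at 6.37 to 13.03 CPM in VTM and 14.3 to 30.5 CPM in CON. These ranges do not overlap, but ROBO4 was selected on this difference, and CON calf 19 was at 13.01 CPM with all 14 libraries scaled together, inside the VTM range. No macrophage, lymphocyte or erythroid marker had a name, and the part of these cells in CST3 was not tested. Of 10 hepatocyte markers TTR alone had a name, at 142 to 932 CPM in VTM and 217 to 2212 CPM in CON. This list thus gave little check of the liver label beside AHSG itself and the named plasma protein genes given below.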

How the data were processed

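Per the labels and the study's methods, the authors trimmed the reads of strand-specific libraries and aligned them with STAR 2.7.5 to the ARS-UCD1.2 genome. The authors deposited unfiltered raw counts per Ensembl gene for 14 libraries, with no normalization. Which strand was counted is not given in the sources used here. If reads were counted without strand, overlapping antisense transcripts would add to a gene.

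The members and gene lists were chosen with earlier results of these data known. Differential expression was fitted on the whole table with edgeR 4.0.16 in R 4.3.3 (filterByExpr, TMM, quasi-likelihood test, diet as the only term) over 12 calves. The standard error is the log2 fold change over the root of its F statistic. DESeq2 1.42.0, other scalings and filters, all 14 calves and each calf left out were alternatives. Both tools were tested on simulated data. Each calf is 1 replicate.

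Shares, ranks, Wilson intervals and permutation tests were computed in Python 3.11.15 (numpy 2.4.6, scipy 1.17.1). Tests of relations are 2-sided, with 100000 permutations, or all orderings within a group. The mitochondrial share covers 17 genes that the study's tables name or mark as mitochondrial (12 of 13 protein-coding, and 5 rRNA or tRNA genes).

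Names were taken from the study's supplementary tables (629 genes), nearly all picked on these calves. Named genes are the members, named members of the lists and the 5 named genes with the highest r to each member. By the rule the 10 genes of largest share would be named too, but only COX1 had a name. Cathepsin and legumain genes had none.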

Additional observations from a re-analysis of the deposited data

Results flagged for a closer look

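The mitochondrially encoded share of CON calf 31 was 18.3%, far above the next CON calf at 8.70% when all 7 CON calves were considered. Its gap to the nearest calf was 0.593 of the group's range, against a critical value of 0.568 for 7 calves (Dixon's test), and over the 6 CON calves of the study the same gap did not pass the critical value of 0.625. The same calf had the highest CST3 and the lowest AHSG share of the 14 calves. Neither gene nor their ratio had a calf past the limit. In all, 16 combinations of measure, group and set of calves were examined, and chance passes about 5% of such groups.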

How the results depend on the processing

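The log2 fold change of AHSG was positive in all 21 alternatives (0.41 to 0.91). That of CST3 was negative in the 20 alternative fits and 1.72 in the 2 calves outside the study's analysis, a comparison chosen after the data were seen, as was the fit without CON calves 25 and 31. The 20 fits reuse calves on which both genes were chosen, so their signs are not independent of that choice. The log2 ratio difference was 1.34 over all 14 calves and 1.45 to 2.05 with each calf left out. The number of genes past the threshold, 494, was 275 over all 14 calves, 310 with library size alone as scaling, 1003 without a low-count filter, 263 without CON calves 25 and 31 and 286 (without CON calf 31) to 1039 (without CON calf 37) with 1 calf left out. Without CON calf 1 there were 743 and without CON calf 25 305. The number of genes with an adjusted p of at most 0.05 was 2 without CON calf 1 and 0 in the other fits.

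Without the 2 calves farthest on the x axis, the correlation with the mitochondrial share was -0.33 for AHSG, 0.13 for CST3 and -0.30 for the ratio, and that between the genes was -0.086. With 1 calf left out, r for CST3 was 0.55 (without CON calf 31, permutation p = 0.121) to 0.82, and between the genes -0.67 to -0.40. The latter did not pass 0.05 without CON calf 25, 31 or 37 or VTM calf 22, 28, 34 or 40. Between the genes r was -0.35 over all 14 calves and -0.31 with group means subtracted. The causes were not tested. Alternatives for the counts over gene lists were not run, because too few members had names. Calf numbers are not shared between groups, so no samples were paired.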

Other observations

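Fetuin-A and transthyretin are known as negative acute-phase proteins, whose plasma levels fall in inflammation, and serum amyloid A as a positive one. SAA2, a serum amyloid A gene chosen here after its values were seen and itself on the study's list, was at 12930 CPM in CON calf 25 and 20490 CPM in CON calf 31, the calves with the lowest AHSG, and at 3039 to 9417 CPM in the other 10 calves of the study. Of the calves left out by the study, CON calf 19 did not follow this. With all 14 libraries scaled together, it had 2163 CPM of SAA2, though its AHSG share was the next lowest after CON calves 25 and 31. VTM calf 10 had 8384 CPM of SAA2, within the range of those other 10 calves. Its AHSG share, 0.648%, was the lowest of the 7 VTM calves. The CON calves averaged 9737 ± 6370 CPM and the VTM calves 5210 ± 2217 CPM (SD, n = 6 per group), so that the means lay closer together than the SD of the CON calves. VTM calf 22, highest in AHSG, was at 7587 CPM in SAA2. Whether an acute-phase response had a part in the AHSG values was not tested.

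Of 43 plasma protein genes on a fixed list, TTR, SERPIND1 and APOC3 had a name, and these 3 did not follow AHSG in CON calves 25 and 31. They do not stand for the rest of the list, which could not be followed. TTR was at 1541 CPM in CON calf 25 and 2212 CPM in CON calf 31, SERPIND1, the gene of heparin cofactor II, at 1663 and 2054 CPM, and APOC3, the gene of apolipoprotein C-III, at 1229 and 1587 CPM, in each case the highest values of the 12 calves. Their log2 fold changes were -0.99 (standard error 0.52), -0.97 (standard error 0.52) and -1.55 (standard error 0.67), opposite in sign to that of AHSG, and all 3 are on the study's list. Of 18 genes listed for proteins that act beside fetuin-A, 3 had a name: MGP, a calcification inhibitor, at -1.06 (standard error 0.29), LGALS3, a galectin, at -0.62 (standard error 0.28), and IRS2, an insulin receptor substrate, at 1.05 (standard error 0.45). Of 15 fetal liver genes, MEST was the 1 named beside AHSG, at -0.72 (standard error 0.28).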
